A study of Homo sapiens with 28 samples.

Results

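Transglutaminases are calcium-dependent enzymes that join glutamine and lysine side chains of proteins by covalent bonds. Described here are 4 of their genes, TGM1, TGM2, TGM3 and TGM5, of 23533 genes in the RNA tables, in EPC2 cells, a human line of immortalised esophageal epithelium. They were found by gene symbol, together with every histone, STAT6 and vitamin D receptor (VDR) region that the peak lists assign to them. The genes were chosen by family, with their RNA levels and fold changes after each treatment already known, so RNA levels and fold changes are given as a description, and the deposited adjusted p-values are quoted without support being drawn from them.

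In stratified epithelium TGM1, TGM3 and TGM5 build the cornified envelope, the cross-linked protein shell under the membrane of the outermost cells. TGM1 is anchored to the membrane and attaches envelope proteins and lipids there, TGM3 is a soluble proenzyme that needs cleavage and cross-links small proline-rich proteins, and TGM5 acts in the upper layers, where its loss causes acral peeling skin. TGM2, tissue transglutaminase, is found in most tissues and works on matrix proteins outside the cell as well as binding GTP inside it. IL-13 is a type 2 cytokine that activates STAT6, a transcription factor, and VDR is the nuclear receptor for active vitamin D.

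Cells plated densely in KSFM medium received IL-13 (100 ng/ml), vitamin D (100 nM) or both, or were left untreated, for 6 h, and all groups share this line and medium. RNA was sequenced in 3 samples of each of the 4 groups. ChIP-seq covered 16 libraries, 1 per condition: H3K27Ac, H3K9Ac and H3K4me3 in all 4 groups, STAT6 with IL-13 and untreated, and VDR with vitamin D and untreated. EPC2 is 1 cell line, the form of vitamin D is not stated, and the labels do not say whether the 3 samples came from separate cultures. The deposited p-values would then measure only the spread between these samples, which may be technical.

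The RNA tables hold 1 RPKM value (reads scaled to transcript length and library size) per group, so read depth and the spread between the 3 samples are unknown. Summed RPKM was 377254 to 391648 per group. All 9 squamous epithelial markers, KRT5, KRT14 and TP63 among them, were at 1 RPKM or more in every group, with a summed level of 31626 to 36311 RPKM. Of 7 fibroblast markers 1 reached 1 RPKM in all groups (summed 6.04 to 15.4 RPKM), and none of 6 leukocyte or 6 endothelial markers did, with sums of at most 0.134 and 0.197 RPKM and FCGR3A listed at 0.

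None of the 4 genes overlaps another gene in the RNA tables (hg19). TGM1 lies on the minus strand of chromosome 14 at 24718320 to 24732416. TGM2 is on the minus strand of chromosome 20 at 36766351 to 36793700, with a longer isoform that ends at 36756864. TGM3 is on the plus strand of the same chromosome at 2276613 to 2321725, 39829 bases from TGM6. TGM5 is on the minus strand of chromosome 15 at 43524793 to 43559055, 9424 bases from TGM7.

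RefSeq promoter sequences were at hand for TGM3 and TGM5. Their RNA moved in contrast: TGM3 was called lower with vitamin D but not with IL-13, and TGM5 with IL-13 but not with vitamin D. The 250 bases upstream of each start are shown, and whether they bear on this contrast was not tested. They are from build GRCh38.p14, not the build of the peak lists, at chr20:2295751-2296000 on the plus strand for TGM3 and chr15:43266929-43267178 on the minus strand for TGM5. Capitals mark TTCNNNNGAA, the spacing preferred by STAT6, and TATAAA, on either strand.
TGM3: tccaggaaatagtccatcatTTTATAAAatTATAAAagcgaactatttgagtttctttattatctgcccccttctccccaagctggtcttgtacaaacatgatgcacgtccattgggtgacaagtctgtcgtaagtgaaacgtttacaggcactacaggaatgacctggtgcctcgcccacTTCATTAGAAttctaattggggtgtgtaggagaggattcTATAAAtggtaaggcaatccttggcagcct
TGM5: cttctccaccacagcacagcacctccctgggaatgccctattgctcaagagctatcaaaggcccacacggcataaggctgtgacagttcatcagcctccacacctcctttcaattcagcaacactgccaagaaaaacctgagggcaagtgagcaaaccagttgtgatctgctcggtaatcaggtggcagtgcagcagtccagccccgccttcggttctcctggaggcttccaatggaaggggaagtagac

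The TGM3 window held 1 match to TTCNNNNGAA, starting 69 bases upstream, a motif in 5.38% of the 35116 human promoter windows of this length. No STAT6 region lay within 50 kb of the TGM3 gene body, with IL-13 or untreated. The window held 4 matches to TATAAA, overlapping in part, of which the nearest starts 30 bases upstream, and TATAAA occurs in 10.7% of windows. TTCNNNGAA (6.57% of windows), the direct-repeat form GNTCANNNNGNTCA (0.49%) and the AP-1 form TGANTCA (6.57%) had no match in TGM3. None of these 5 motifs was found in the TGM5 window. The TGM3 window was 42.4% and the TGM5 window 54.4% G or C, against a median of 58% over all windows.

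TGM1 was by far the most abundant member in every group. Its level was 132 RPKM with IL-13, 192 RPKM with vitamin D, 84.5 RPKM with both and 262 RPKM in untreated cells, where it stood above 99.2% of genes. The untreated group is the highest and the combination the lowest. TGM2 had 14.6 RPKM with IL-13, 2.77 RPKM with vitamin D, 14.99 RPKM with both and 6.56 RPKM in untreated cells. The 2 groups given IL-13 are high and almost level, and vitamin D without IL-13 is low.

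TGM3 was listed at 16.5 RPKM with IL-13, 8.58 RPKM with vitamin D, 8.06 RPKM with both and 16.4 RPKM in untreated cells. Here the 2 groups given vitamin D are the low ones. TGM5 was listed at 1.34 RPKM with IL-13, 3.37 RPKM with vitamin D, 0.98 RPKM with both and 3.54 RPKM in untreated cells, so that the groups given IL-13 are low. In bulk RNA, fewer cells of a type and less RNA per cell cannot be told apart.

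**Figure D1:**
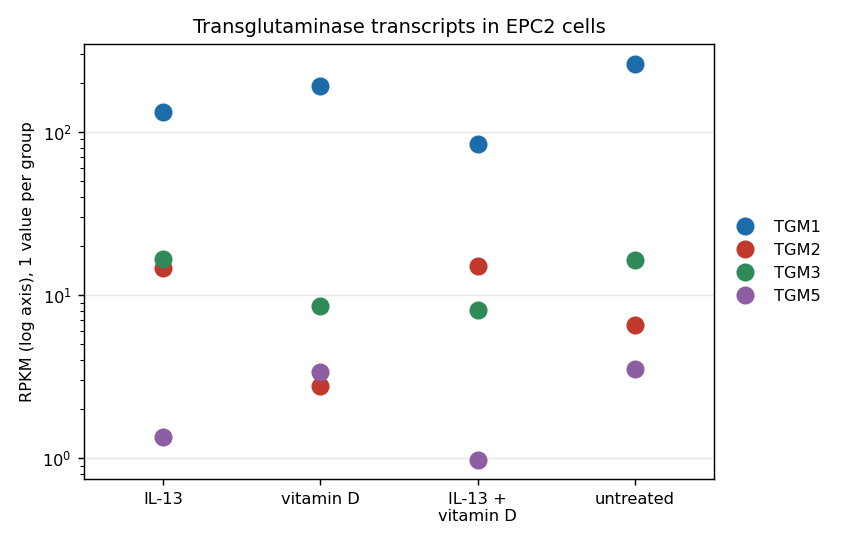
RPKM of TGM1, TGM2, TGM3 and TGM5 on a log axis, 1 deposited value per treatment group of 3 samples, with no error shown because none is in the tables. TGM2 stands at 14.6 and 14.99 RPKM in the groups given IL-13, against 2.77 RPKM with vitamin D and 6.56 RPKM untreated, while TGM1 is lowest, at 84.5 RPKM, where both were given.

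The order of levels shifted with treatment. It was TGM1, TGM3, TGM2, TGM5 with IL-13 and in untreated cells, TGM1, TGM3, TGM5, TGM2 with vitamin D, and TGM1, TGM2, TGM3, TGM5 with both. With 1 value per group it cannot be said which neighbours in these orders differ beyond the spread of samples. TGM2 made up 8.88% of the RPKM summed over the 4 genes with IL-13, 1.34% with vitamin D, 13.8% with both and 2.27% in untreated cells. The ratio of TGM1 to TGM2 was 9.04 with IL-13, 69.1 with vitamin D, 5.64 with both and 39.9 in untreated cells.

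The rest of the family was near silent. TGM4, the prostate transglutaminase, was at 0.0726 RPKM with IL-13, 0.211 RPKM with vitamin D, 0.15 RPKM with both and 0.106 RPKM in untreated cells. TGM6 and TGM7 stayed at or below 0.0366 RPKM, the erythrocyte membrane protein gene EPB42, a family member without enzyme activity, at or below 0.00374 RPKM, and the coagulation factor XIII A chain gene F13A1 was listed at 0 in all 4 groups.

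The first comparison asks what IL-13 alone did. In the authors' deposited table TGM2 rose by 1.12 (log2, derived SE 0.053), or 2.17-fold, at an adjusted p of 1.89e-97. TGM1 fell by 0.99 (0.041) and TGM5 fell by 1.34 (0.10) in the authors' deposited table, with adjusted p of 2.54e-129 and 2.7e-38. For TGM3 the authors' deposited table gives a log2 fold change of -0.00 (0.048), adjusted p 0.986. Thus 1 of 4 members was called higher and 2 lower at an adjusted p below 0.05, where 26.3% of 15172 tested genes were called in all, 12.3% higher and 14% lower. Each standard error was derived from a deposited fold change and its p-value, on the assumption of a normal test statistic.

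With vitamin D alone 3 members fell, TGM2 among them. In the authors' deposited table TGM2 fell by 1.19 on the log2 scale (derived SE 0.067), TGM3 fell by 0.86 (0.050) and TGM1 fell by 0.39 (0.034). Their adjusted p-values in the authors' deposited table were 4.1e-70, 2.36e-65 and 6.36e-30. TGM5, at -0.01 (0.080) and an adjusted p listed as 0.936 in the authors' deposited table, was not called. No member was called higher and 3 were called lower, against 17.5% and 15.1% of 15177 tested genes, or 32.5% in either direction.

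With both agents TGM2 rose by 1.20 (derived SE 0.059) over untreated cells in the authors' deposited table, and the envelope enzymes all fell. TGM1 fell by 1.61 (0.051), TGM3 fell by 1.002 (0.058) and TGM5 fell by 1.80 (0.12) in the log2 values of the authors' deposited table. All 4 members were called in this comparison, 1 higher and 3 lower, where 31.7% of 15971 tested genes were called, 16% higher and 15.7% lower. The 3 comparisons so far share the untreated samples.

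Set against vitamin D alone, the combination had TGM2 higher by 2.39 (derived SE 0.067), or 5.24-fold, in the authors' deposited table, with an adjusted p of 5.41e-278. TGM1 fell by 1.21 (0.048) and TGM5 fell by 1.72 (0.11) in the authors' deposited table. TGM3 had -0.12 (0.064) in the authors' deposited table, adjusted p 0.129, and was not called. Of the members 1 was higher and 2 lower, against 33.2% of 14859 tested genes called, 16.4% higher and 16.9% lower.

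**Figure D2:**
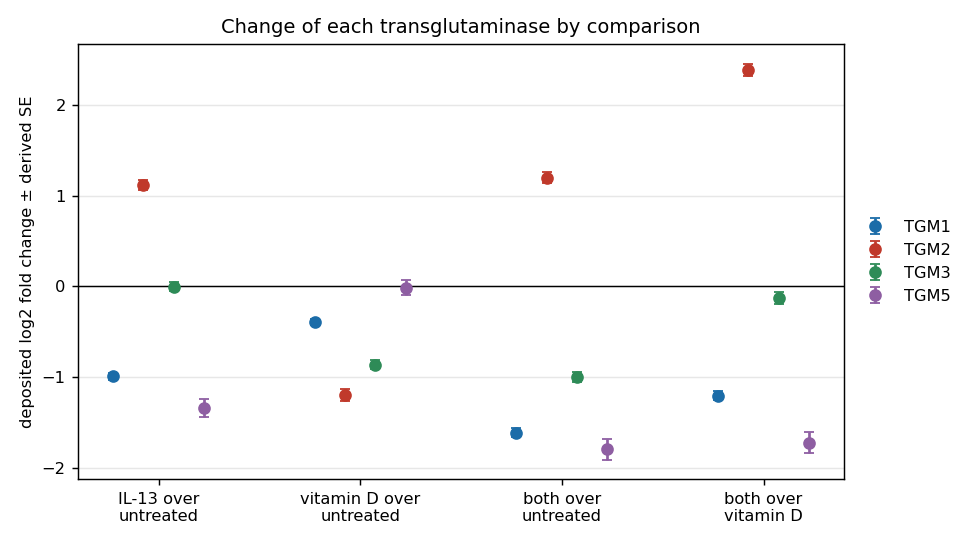
Deposited log2 fold change of each gene in 4 comparisons, as points with bars of 1 standard error derived from the deposited p-value. TGM2 alone lies above 0 in the comparisons that add IL-13, at 1.12, 1.20 and 2.39, and lies at -1.19 with vitamin D, where TGM5 lies at -0.01.

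Over untreated cells, the contrast of TGM2 with the envelope enzymes was widest with both agents. In log2 terms the change of TGM2 exceeded that of TGM1 by 2.11 with IL-13 and by 2.81 with both, but was 0.80 below it with vitamin D. Against TGM3 the gap was 1.12 with IL-13, -0.33 for vitamin D and 2.20 for both, and against TGM5 it was 2.46, -1.18 and 2.99 in that order of treatments. With vitamin D alone TGM2 had the lowest fold change of the 4.

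The IL-13 fold change of TGM2 was larger in the presence of vitamin D, a difference for which no p-value was computed. It was 2.39 with vitamin D present and 1.12 without, from the authors' deposited tables, a difference of 1.27 ± 0.085 (derived SE, 95% interval 1.10 to 1.44). The tables behind this difference share no sample, and 0.0813% of 14769 genes had an absolute difference as large. For TGM1 the difference was -0.21 ± 0.063, for TGM3 -0.12 ± 0.080 and for TGM5 -0.38 ± 0.15, sizes reached by 16.4%, 37.1% and 4.3% of genes. These are descriptions, since the genes were chosen with the values known.

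Read from the other side, the vitamin D effect on TGM2 was large without IL-13 and near 0 with it. The log2 ratio of RPKM for the combination over IL-13, for which no deposited comparison was used, was 0.03 for TGM2, against -1.19 for vitamin D over untreated cells in the authors' deposited table. TGM1 had -0.65 in the presence of IL-13, TGM3 -1.03 and TGM5 -0.42. Summing the 2 separate effects gives -0.07 for TGM2, where the combination over untreated cells had 1.20. For TGM1 the sum was -1.38 and the combination -1.61, for TGM3 -0.86 and -1.002, and for TGM5 -1.35 and -1.80, so the envelope enzymes lay 0.14 to 0.44 below their sums. The smallest gap was that of TGM3, whose difference of IL-13 effects had a 95% interval that included 0 (-0.28 to 0.03).

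The genes nearest to each member in the 3 changes over untreated cells were sought among 11543 genes that reached 1 RPKM in a group, by Euclidean distance in log2 units over 3 fold changes. TGM1 had APCDD1L, the fatty acid binding protein gene FABP5 and the steroid sulfate transporter gene SLC10A6, at distances of 0.14 to 0.22. Around TGM3 were the stress factor gene DDIT3, the sterol hydroxylase gene CYP39A1 and the WNT receptor gene FZD8, at 0.07 to 0.17. The neighbours of TGM5 were TM4SF19, CYP4F22, which encodes the omega-hydroxylase of envelope ceramides, and FGFBP1, at 0.30 to 0.37. TGM2 had the most distant ones, PTCHD4 at 0.48, the oxidase gene CYP1B1 at 0.54 and the coactivator gene PPARGC1B at 0.56.

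CYP1B1 shows the likeness in levels. It had 4.95 RPKM with IL-13, 0.672 RPKM with vitamin D, 3.996 RPKM with both and 1.53 RPKM in untreated cells. FABP5, a neighbour of TGM1, had 393 RPKM with IL-13, 557 RPKM with vitamin D, 238 RPKM with both and 698 RPKM in untreated cells.

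Genes of the proteins that these enzymes cross-link were mostly lower with IL-13. Of 44 envelope substrate genes 29 were tested, and 3 were called higher and 19 lower, with a median log2 fold change of -0.44 in the authors' deposited table, against 0.00 over all tested genes. At a minimum of 1.5-fold these counts were 1 higher and 8 lower. With IL-13, 12.3% of all tested genes were called higher and 14% lower at an adjusted p below 0.05. IVL, which encodes the early envelope protein involucrin, had 12.7 RPKM with IL-13, 92.6 RPKM with vitamin D, 21.5 RPKM with both and 50.3 RPKM in untreated cells. Its log2 fold change in the authors' deposited table was -1.96 with IL-13 and 0.93 with vitamin D. That of CRNN, the cornulin gene, was -0.90 with IL-13 and 0.84 with vitamin D in the authors' deposited table.

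RPTN, which encodes the envelope precursor repetin, went against its list. It stood at 27.4 RPKM with IL-13, 12.9 RPKM with vitamin D, 84.0 RPKM with both and 5.77 RPKM in untreated cells, and rose by 2.18, 1.20 and 3.82 (log2) in those treated groups in the authors' deposited table. The late envelope gene LCE3D rose by 0.46 and the protease inhibitor gene CSTA by 0.14 with IL-13 in the authors' deposited table. FLG2, a filaggrin relative, fell by 0.85 in the authors' deposited table, with 0.108 RPKM after IL-13 and 0.251 RPKM in untreated cells.

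With vitamin D 6 of 29 tested substrates were higher and 11 lower (median -0.08 in the authors' deposited table), and with both 4 of 35 were higher and 18 lower (median -0.36). Over all tested genes 17.5% were higher and 15.1% lower with vitamin D, and 16% and 15.7% with both. With both, SPRR1A, a small proline-rich substrate of TGM1 and TGM3, fell by 1.31 in the authors' deposited table. It had 710 RPKM with IL-13, 932 RPKM with vitamin D, 500.02 RPKM with both and 1256 RPKM in untreated cells. Against vitamin D alone, the combination had 2 of 29 substrates higher and 16 lower, with a median of -0.32 in the authors' deposited table, and 1 higher and 8 lower at a minimum of 1.5-fold. In that comparison 16.4% of all tested genes were called higher and 16.9% lower. The SPRR2 and LCE genes include near-identical copies, and how reads were divided among them is not given in the sources at hand.

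Genes of enzymes that make the lipid envelope, which TGM1 helps to attach, were lower in 9 of 13 with IL-13, 9 of 13 with vitamin D and 11 of 13 with both. Over all tested genes 14%, 15.1% and 15.7% were lower in that order, and 12.3%, 17.5% and 16% higher. No gene of that list was called higher with IL-13 or with both, and 3 were with vitamin D, while at a minimum of 1.5-fold the genes lower numbered 6, 1 and 7 for the same 3 comparisons. Medians in the authors' deposited tables were -0.53 with IL-13, -0.43 for vitamin D and -0.97 for both. The lipoxygenase gene ALOX12B had 12.3 RPKM with IL-13, 20.2 RPKM with vitamin D, 9.75 RPKM with both and 28.5 RPKM in untreated cells. SDR9C7, a dehydrogenase of the same linoleate pathway, fell by 1.77 with IL-13 and by 1.87 with both in the authors' deposited table, and CYP4F22 fell by 1.55 and 1.76.

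Genes listed as proteases and modulators of transglutaminase activation were mostly higher with vitamin D, by small amounts. The list pools proteases with inhibitors such as CST6, so its counts give no direction for activation. With IL-13 2 of 15 were higher and 6 lower, with vitamin D 10 of 15 were higher and 1 lower, and with both 4 were higher and 3 lower, with medians of -0.11, 0.14 and -0.03 in the authors' deposited tables. Over all tested genes 12.3%, 17.5% and 16% were higher in that order, and 14%, 15.1% and 15.7% lower. At a minimum of 1.5-fold the counts with vitamin D were 2 higher and 0 lower. Cathepsin D, a protease reported to process TGM1, had 461 RPKM with IL-13, 725 RPKM with vitamin D, 648 RPKM with both and 484 RPKM in untreated cells for its gene CTSD. CASP14, the caspase of cornification, had a log2 fold change of -0.37 with IL-13 and of 0.80 with vitamin D in the authors' deposited table. CST6, which encodes cystatin M/E, an inhibitor upstream of TGM3 cleavage, rose by 0.42 with vitamin D in the authors' deposited table.

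Matrix substrates and partners of TGM2 moved both ways. Of 17 tested 4 were higher and 9 lower with IL-13, and 5 were higher and 5 lower with vitamin D, with medians of -0.16 and 0.02 in the authors' deposited tables. With both, 6 of 19 were higher and 6 lower (median 0.02 in the authors' deposited table). Shares of all tested genes higher and lower were 12.3% and 14% with IL-13 and 17.5% and 15.1% with vitamin D. With both they were 16% and 15.7%. THBS1, which encodes the matrix protein thrombospondin, had 123 RPKM with IL-13, 38.4 RPKM with vitamin D, 116 RPKM with both and 66.8 RPKM in untreated cells. TXN, which encodes thioredoxin, an activator of TGM2 by reduction, had 246 RPKM with IL-13, 110 RPKM with vitamin D, 200.3 RPKM with both and 112 RPKM in untreated cells.

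Fibronectin, the main matrix substrate of TGM2, showed no call: its gene FN1 had 759 RPKM with IL-13, 699 RPKM with vitamin D, 744 RPKM with both and 715 RPKM in untreated cells. The adhesion receptor gene GPR56, whose product binds TGM2, fell by 0.66 with IL-13, by 0.42 with vitamin D and by 1.25 with both in the authors' deposited table. TGFB1, the cytokine gene whose latent complex TGM2 can cross-link to matrix, rose by 1.37 with vitamin D and fell by 0.29 with IL-13 in the authors' deposited table.

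**Figure D3:**
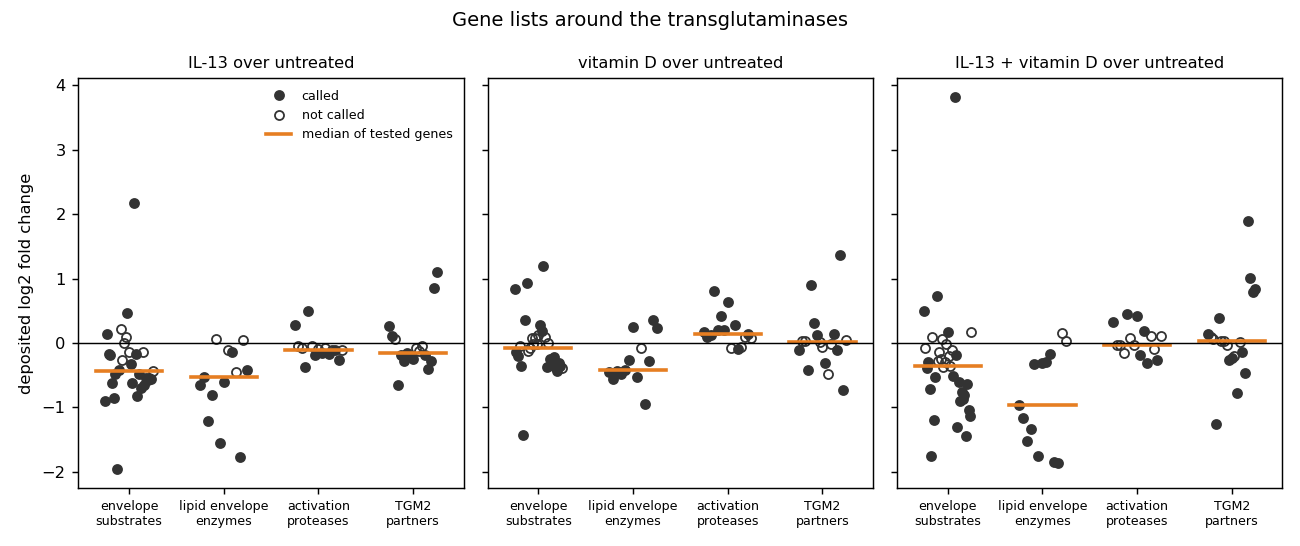
Deposited log2 fold change of every tested gene in 4 lists, for IL-13, vitamin D and both over untreated cells, with filled points for genes at an adjusted p below 0.05, open points for others and a bar at the median. The median of lipid envelope enzymes is -0.53, -0.43 and -0.97 in the 3 panels, and the highest point is RPTN at 3.82 with both. The list labelled activation proteases also holds inhibitors.

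Chromatin was read from peak lists of 1 library per condition, so no difference between libraries has a replicate check. Fold enrichment is the height of stacked reads (pileup) over background, as the authors' peak caller gave it. Background values below are the pileup plus 1, divided by the fold enrichment, and may themselves include an added 1. They show which library was deeper but not by how much. Unscaled enrichments of libraries that differ in depth are not on a common scale. A region is a stretch that the files list with a common start and end. Within each histone and STAT6 library the background was nearly constant across regions, so those enrichments carry no correction for local signal. In the VDR libraries the background varied between regions. The untreated H3K27Ac library was deeper, since the background was 1.51 to 1.73 in the 3 treated libraries and 2.40 untreated, with 67234 to 72677 regions in treated and 91930 in untreated cells. Over 33646 regions found in all 4 libraries the median H3K27Ac enrichment was 7.94 with IL-13, 9.25 with vitamin D, 8.31 with both and 11.7 in untreated cells. Scaled values below are divided by that median.

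The 4 genes differ in the chromatin assigned to them. TGM1 had 8 sites (regions of any library merged within 500 bases, promoter regions kept apart), TGM2 12, TGM3 14 and TGM5 5. Of the 8 sites of TGM1, 3 upstream ones are assigned by the files also to RABGGTA, in part to NOP9 as well, while every histone region of the other 3 genes is assigned to that gene alone. In H3K27Ac, TGM1 had 9 regions with IL-13, 9 with vitamin D, 8 with both and 11 untreated, and TGM2 had 12, 10, 13 and 12 in that order. TGM3 had 5, 11, 7 and 15. TGM5 had none with IL-13, 4 with vitamin D, 3 with both and 4 untreated.

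TGM2 had STAT6 regions in its body and near its start. After IL-13 there were 3, of which 2 lay in an intron, at chr20:36771723-36772026 and chr20:36772824-36773102, with summits 21.8 and 20.8 kb downstream of the start. The third, at chr20:36796031-36797189, had its summit 2.62 kb upstream. Their fold enrichments were 4.70, 4.201 and 4.70, values that 57.5% to 73.5% of the 4851 STAT6 regions in that library reached. No STAT6 region was assigned to TGM2 in untreated cells. VDR had no region assigned to TGM2 with vitamin D or in untreated cells, and none lay within 50 kb of the gene. At least 1 VDR region was assigned to 23.6% of genes with vitamin D and to 6.45% in untreated cells.

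At least 1 STAT6 region was assigned to 9.87% of genes with IL-13 and to 0.888% in untreated cells. The STAT6 library with IL-13 was deeper, with a background of 4.05 with IL-13 and 2.46 untreated. The smallest enrichment listed in the untreated library was 4.06, near the values at TGM2. Whether signal of this height would be listed at that depth was not tested. A taller STAT6 region after IL-13, at chr20:36824471-36825706 with an enrichment of 14.3, lay 31.4 kb upstream of the TGM2 start. It was assigned by the files to KIAA1755, and 4.64% of the STAT6 regions in its list were as high.

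STAT6 regions at TGM2 lay in acetylated chromatin. At the intron site, 21.3 kb downstream, H3K27Ac enrichment was 13.9 with IL-13, 14.4 with vitamin D, 14.1 with both and 22.1 in untreated cells, which scale to 1.75, 1.56, 1.69 and 1.89. At the upstream site, 3.30 kb away, it was 10.6 with IL-13, 12.7 with vitamin D, 15.97 with both and 13.4 in untreated cells, or 1.33, 1.38, 1.92 and 1.14 scaled. The scaled log2 ratio of both over untreated at the upstream site was 0.75 (95% counting interval -0.02 to 1.52). Both sites were thus acetylated without IL-13.

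The TGM2 promoter carried H3K27Ac at 10.6 with IL-13, 6.36 with vitamin D, 9.58 with both and 12.9 in untreated cells. Scaled log2 ratios to untreated were 0.27 with IL-13, -0.69 for vitamin D and 0.06 for both. In this mark vitamin D alone is the low library, as in the RNA, but H3K9Ac there was lowest with IL-13. Pileups were 15, 10, 14 and 30 fragments, and each interval of the ratio included 0. That of vitamin D over untreated ran from -1.72 to 0.35 scaled and from -2.06 to 0.01 unscaled. H3K4me3 there was called at 4.35 with IL-13 and 5.21 with both, against 4.11 in untreated cells, and not with vitamin D. Its pileups were 5 with IL-13, 8 with both and 5 untreated, where the smallest called pileup in the vitamin D library was 5. H3K9Ac was 4.04 with IL-13, 5.45 with vitamin D, 8.87 with both and 6.48 in untreated cells.

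**Figure D4:**
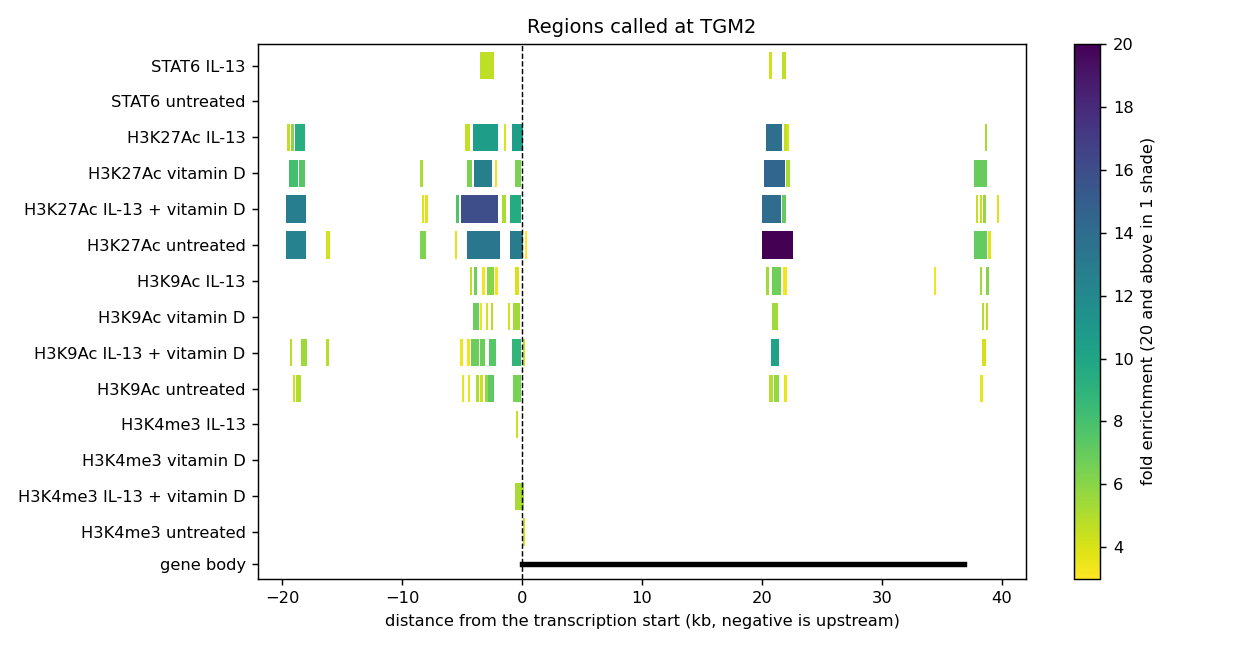
Regions assigned to TGM2 in 14 libraries by distance from its start in kb along the direction of transcription, shaded by fold enrichment, with the gene body as a black bar. The STAT6 regions after IL-13 fall on the acetylated stretches near 3 kb upstream and 21 kb downstream, and the row for STAT6 in untreated cells is empty. The VDR libraries, which had no region assigned to TGM2, are not shown.

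TGM1 had a promoter region in all 12 histone libraries. H3K27Ac was 11.9 with IL-13, 14.4 with vitamin D, 11.5 with both and 18.4 in untreated cells, from pileups of 17, 24, 17 and 43. Scaled, the log2 ratios to untreated were -0.07 with IL-13, -0.01 for vitamin D and -0.18 for both, smaller than the RNA changes of -0.99, -0.39 and -1.61 in the authors' deposited tables. Unscaled, they were -0.63, -0.35 and -0.68, and each counting interval, scaled or not, included 0. For vitamin D the scaled interval, -0.73 to 0.71, also held the RNA change. Unscaled, the intervals with IL-13 (-1.44 to 0.18) and vitamin D (-1.07 to 0.37) held it, and that with both (-1.49 to 0.13) did not. With IL-13, whether the mark moved less than the RNA thus depended on the scaling. H3K4me3 was 10.9 with IL-13, 14.7 with vitamin D, 9.85 with both and 9.59 in untreated cells. Neither STAT6 nor VDR had a region assigned to TGM1, and 1 VDR region after vitamin D, assigned to TINF2 with an enrichment of 5.23, lay 6.30 kb past its end at chr14:24711553-24712077.

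TGM3 had no promoter region in any of 12 histone libraries, although its RNA was above that of TGM2 in untreated cells. An H3K27Ac promoter region was assigned to 54.5% of genes with IL-13, 55.1% with vitamin D, 55.1% with both and 58.5% untreated. For H3K9Ac the shares were 52.6%, 52.8%, 52.7% and 52.2% in the same order, and for H3K4me3 58.2%, 59.2%, 58.9% and 58.7%. Its only site with all 3 marks in every library lay 88.3 kb upstream, where H3K4me3 was 21.8 with IL-13, 36.2 with vitamin D, 27.2 with both and 26.0 in untreated cells. The files assign it to TGM3 by a rule they do not state, and what is transcribed there was not analysed here.

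TGM3 also had the tallest STAT6 region assigned to a member. It lay at chr20:2216939-2217349, with its summit 59.6 kb upstream and an enrichment of 8.65, which 15.2% of the regions in its list reached, and had no match in untreated cells. H3K27Ac at that site was 6.61 with IL-13, 10.98 with vitamin D, 7.03 with both and 12.9 in untreated cells, or 0.83, 1.19, 0.85 and 1.11 scaled. The libraries given IL-13 are the low ones, but scaled counting intervals against untreated included 0 (-1.48 to 0.66 with IL-13, -1.42 to 0.64 with both). H3K9Ac was 4.71 with IL-13, 4.77 with vitamin D, 4.09 with both and 5.76 untreated. H3K4me3 was 5.81, 5.52, not called and 4.11 in that order. The RNA of TGM3 was not called with IL-13.

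VDR after vitamin D had 2 regions assigned to TGM3 and none in untreated cells, where 23.6% of genes had a VDR region with vitamin D and 6.45% had one untreated. They lay at chr20:2211756-2212022 and chr20:2240994-2241259, 64.8 and 35.4 kb upstream, with enrichments of 6.24 and 5.61, below the median of 6.72 for that library. A taller VDR region, at 17.5, lay at chr20:2367180-2367788 within TGM6, 45.8 kb past the end of TGM3. An intron site of TGM3, 19.2 kb downstream of the start, had H3K27Ac at 7.51 with vitamin D and 5.01 in untreated cells. It was not called in the 2 libraries given IL-13. Those had the lowest H3K27Ac backgrounds, 1.51 with IL-13 and 1.57 with both, and pileups at this site were 12 with vitamin D and 11 untreated. Whether depth accounts for the missing calls was not tested.

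TGM5, the least abundant member in all groups but vitamin D, had the fewest sites. Its promoter was called in H3K9Ac with vitamin D at 4.09 and in H3K27Ac in untreated cells at 4.17, and in no other library. The strongest intron site, 12.6 kb downstream, had H3K27Ac at 6.93 with vitamin D, 4.47 with both and 7.09 in untreated cells and was not called with IL-13. With IL-13 alone the RNA was low and this mark was not called, but with both the RNA was lowest, at 0.98 RPKM, and the mark was called. Pileups were 11, 6 and 16, where the smallest called pileup in the IL-13 library was 4. Neither STAT6 nor VDR had a region assigned to TGM5. The nearest VDR region after vitamin D, at chr15:43511197-43511936 in EPB42 with an enrichment of 21.1, lay 13.2 kb past the end of TGM5.

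**Figure D5:**
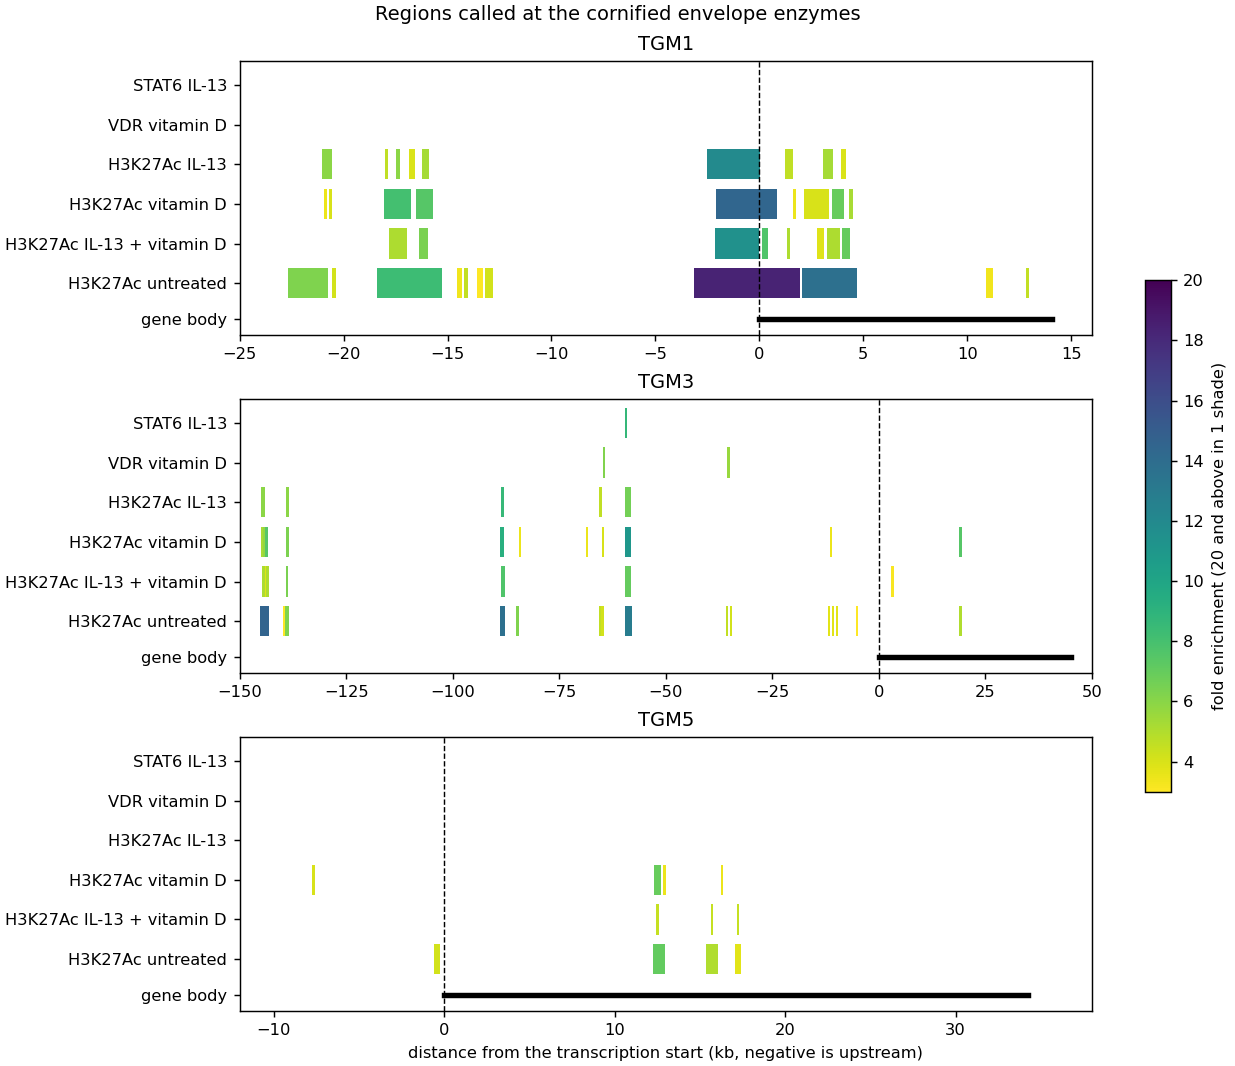
Regions assigned to TGM1, TGM3 and TGM5 in the STAT6, VDR and H3K27Ac libraries by distance from each start in kb along the direction of transcription, shaded by fold enrichment, with the gene body as a black bar. TGM1 has H3K27Ac regions next to or across its start in every group, at 11.9 with IL-13, 14.4 with vitamin D, 11.5 with both and 18.4 untreated, TGM3 chiefly 58.8 kb or more upstream, and TGM5 has no H3K27Ac region with IL-13.

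Across the 4 genes, histone enrichment at a site could be set against untreated cells in 97 cases, of 3 marks and 3 treatments. Before scaling, 5 of 97 counting intervals lay wholly off 0, all for H3K27Ac, all lower than untreated and at 1 site each of TGM1 and TGM3. After scaling to the median enrichment of regions found in all 4 libraries of a mark none did. That scaling also removes any difference shared by most regions. Differences in these marks were not detectable at this depth beyond that scaling, and the intervals cover counting error only.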

How the data were processed

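RNA and chromatin of EPC2 cells were read from deposited tables. The authors deposited 4 RNA tables with 1 RPKM per group, a log2 fold change, a p-value and an adjusted p, per the file headers. The sources at hand do not give the test behind them. An adjusted p of exactly 1 was treated as not tested. All 4 transglutaminases were tested in every table. A file named for the combination and IL-13 in fact compares the combination with vitamin D alone: its log2 values had r = 0.963 with that RPKM ratio and -0.01 with the ratio to IL-13 across genes.

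Peak lists gave the pileup as a signal (coverage at the summit), a fold ratio over background, and -log10 p and q, per the file headers. The authors' summits with a common start and end were joined into 1 region, and gene assignments are those in the files. The VDR library with vitamin D had been scaled, since 0.0955% of its pileups are whole. The submitters' processing notes list MACS2, Bowtie, STAR, SAMtools and Trim Galore, without versions, and name hg19 and GRCh37 as builds.

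Standard errors were |log2 fold change| over the normal quantile of the deposited p, checked on simulated data. Counting intervals treat pileups as Poisson counts, at 95%. Nothing was retested. Besides the 4 members, up to 3 called genes per list, direction and comparison were eligible to be named, and the 3 nearest patterns per member; list genes outside this rule, such as FN1, were chosen after their values were seen. Members and lists were chosen with earlier results of these data known. Python 3.11.15, pandas 2.3.3, numpy 2.4.6 and scipy 1.17.1 were used.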

Additional observations from a re-analysis of the deposited data

How the results depend on the processing

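No paired analysis was possible because the RNA tables hold 1 value per group, and for the same reason no replicate could be left out. Every called fold change of a member kept its direction under log2 ratios of RPKM with pseudocounts of 0.1, 0.01 and 1 and under rescaling to a common sum. Of 16 values, 2, 2, 9 and 4 moved beyond the derived standard error under these settings. The counts of members called stayed within 1.5 times at an adjusted p of 0.01 and at a minimum of 1.5-fold, which drops TGM1 with vitamin D. That minimum cut many list counts by over 1.5 times: envelope substrates with vitamin D had 3 higher and 1 lower (against 6 and 11), and with both 2 higher (against 4). Proteases and modulators had 0 higher and 0 lower with IL-13 (against 2 and 6) and with both (against 4 and 3), and TGM2 partners had 2 higher and 1 lower with IL-13 (against 4 and 9), 2 and 1 with vitamin D (against 5 and 5) and 2 lower with both (against 6). Lipid envelope enzymes had 0 higher with vitamin D (against 3). Region counts depended on the rule. At a -log10 q of at least 10, 39 counts of regions per gene and library moved by over 1.5 times and 25 did not. Most of those that moved were histone counts. At that setting STAT6 regions of TGM2 with IL-13 numbered 0 against 3, and VDR regions of TGM3 with vitamin D numbered 0 against 2. Within 10 kb of the gene body, in place of the files' assignment, the STAT6 count of TGM3 was 0 and also 0 within 50 kb, against 1, its VDR count within 10 kb was 0, and VDR regions of TGM1 numbered 1 within 10 kb and 1 within 50 kb, against 0. TGM5 had 1 VDR region within 50 kb, against 0. The depth of RNA samples is unknown, and pileups of 4 to 58 limit the histone comparisons.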
